A study of Bos taurus with 30 samples.

Results

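Corpora lutea of day 11 of the bovine estrous cycle were compared with corpora lutea of day 4, both collected without prostaglandin F2α. The members of the comparison were the 10 arrays labelled 0 h, 5 from day 11 and 5 from day 4, of 30 arrays in all. The whole study crossed the same 2 days of the cycle with 3 times (0, 4 and 24 h) after prostaglandin F2α (PGF2α), the hormone that ends the life of a mature corpus luteum. The 30 heifers were Angus crosses assigned at random, 5 to each of 6 groups, with 1 Affymetrix GeneChip Bovine Genome Array for each. Heifers of the day 11 group at 0 h had received saline on day 11, and heifers of the day 4 group at 0 h had received saline on day 4. No gene was altered in any group, and both groups were whole luteal tissue, so fewer cells of a type and less RNA per cell cannot be told apart in any value below.

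The corpus luteum forms from the granulosa and theca cells of the ruptured follicle. These cells enlarge into large and small luteal cells, which take up and make cholesterol and convert it to progesterone, and the gland is meanwhile invaded by capillaries and supported by fibroblasts and macrophages. Around day 4 the bovine gland is still growing and resists PGF2α, while around day 11 it is full grown and PGF2α makes it regress.

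Signals are log2 values per probe set, and a difference is the mean of day 11 minus the mean of day 4 with its standard error (SE). A difference of 1 is a doubling of the signal. Genes and probe sets were called higher or lower on day 11 when the p-value of the limma fit, adjusted by the Benjamini-Hochberg method over all 24016 probe sets, was under 0.05. A group mean under 4.11, the 25th percentile of the mean signals of all probe sets, is described as near background.

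The tissue matched its label. Over 9 genes that define steroid-making luteal tissue, among them STAR, CYP11A1, HSD3B1 and OXT, the median signal per array lay at 13.41 to 13.57 on day 11 and 12.80 to 13.004 on day 4, far above the 75th percentile of all probe sets (7.98). FOXL2 (Entrez Gene 281770), a transcription factor of granulosa cells, was near background on both days, at 4.00 ± 0.34 on day 11 and 4.07 ± 0.28 on day 4 (SD, n = 5 each). HBA, a hemoglobin chain of red cells, was also near background, at 3.02 on day 11 and 3.00 on day 4. Array medians lay between 6.03 and 6.10, arrays of one day correlated at 0.985 to 0.990 on day 11 and 0.988 to 0.993 on day 4 across probe sets, and arrays of different days at 0.963 to 0.979. Of 7 measures of RNA and array quality none differed at an adjusted p under 0.05 in exact two-sided permutation tests, which at 5 against 5 cannot go below 0.0079 before adjustment. The closest were the 3′ minus 5′ difference of the EF1A control, at -2.17 on day 11 and -2.37 on day 4 (exact permutation p = 0.024, adjusted 0.11), and the mean of the poly-A labelling controls, at 10.6 on day 11 and 10.1 on day 4 (exact permutation p = 0.032, adjusted 0.11). Their part in the results was not tested.

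The question was how the transcriptome of the gland changes as it matures. Of 24016 probe sets, 8128 (33.8%) were called, 3879 higher (16.2%) and 4249 lower (17.7%) on day 11, and in 5614 (23.4%) the 5 day 11 and the 5 day 4 values did not overlap. The 13292 probe sets with 1 gene symbol stood for 9155 genes, each taken at its brightest probe set. Of these genes 4071 (44.5%) were called, 1642 higher (17.9%) and 2429 lower (26.5%). Counts of list members called below are to be read against these shares. Among the genes 2992 (32.7%) did not overlap. Most differences were small: among called genes the median size was 0.55, and 324 genes (3.54%) were called at 2-fold or more higher and 389 (4.25%) at 2-fold or more lower. Calls were more frequent at high signal, from 8.26% of the probe sets in the dimmest 25% to 55.6% in the brightest 25%. The median difference over all genes was -0.02. Arrays of day 11 spread more than arrays of day 4, with a median SD of 0.20 against 0.16.

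Several of the genes with the largest higher signals on day 11 belong to fat and amino acid metabolism or to the blood plasma. ACSM1 (282576), which activates medium-chain fatty acids in mitochondria, had signals of 8.29, 5.95, 7.81, 8.72 and 7.24 in the day 11 glands, against 3.22, 3.63, 4.36, 4.46 and 3.44 in the day 4 glands. The groups did not overlap and day 4 was near background, with a difference of 3.78 ± 0.52 (SE, adjusted p = 1.7e-06). DDO (280763), which breaks down D-aspartate, gave 7.05, 6.05, 7.05, 7.06 and 7.23 in the day 11 glands, against 3.49, 3.87, 3.98, 3.56 and 3.85 in the day 4 glands. All 5 day 4 glands were near background and all 5 day 11 glands well above, with a difference of 3.14 ± 0.25 (adjusted p = 5.7e-10). BBOX1, which catalyses the last step of carnitine synthesis, differed by 2.42, ABHD6, a hydrolase of monoacylglycerols, by 2.68, and VNN1, which recycles pantothenic acid, by 2.48. ALDH1A1, which makes retinoic acid, averaged 12.73 ± 0.21 on day 11 and 10.21 ± 0.54 on day 4 (SD, n = 5 each), a difference of 2.52 ± 0.24 (adjusted p = 9.1e-09).

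Some genes known for plasma proteins made by the liver also had large differences. FGG (280792), the gamma chain of fibrinogen, had signals of 10.79, 10.62, 10.58, 11.06 and 11.28 in the day 11 glands, against 7.18, 8.99, 8.46, 8.06 and 6.14 in the day 4 glands. All day 11 values lay above all day 4 values, although day 4 glands spread over almost 3 units, and the difference was 3.10 ± 0.45 (adjusted p = 4.1e-06). TF, transferrin, which carries iron, differed by 2.72 ± 0.24, ORM1, orosomucoid, by 2.92 ± 0.50 from a day 4 level near background, and CP, the copper carrier ceruloplasmin, by 1.27 ± 0.25. The receptor for transferrin moved the other way: TFRC differed by -1.42 ± 0.11 (adjusted p = 5.8e-10), with signals of 4.01 to 4.45 on day 11 and 5.57 to 5.92 on day 4. Of 18 measured genes of acute phase and iron proteins, 4 were higher, the ones just named, and 2 were lower, TFRC and PTX3, where 17.9% of all genes were higher and 26.5% lower. The list's median difference was 0.04. PTX3, a pentraxin of innate immunity and of the matrix around the oocyte, averaged 6.18 ± 1.04 on day 11 and 9.05 ± 0.76 on day 4 (SD, n = 5 each). Troponin genes of striated muscle were also among the 20 largest: TNNT1, troponin T of slow skeletal muscle, differed by 3.29 ± 0.39 and TNNI3, troponin I of heart muscle, by 2.63 ± 0.36.

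**Figure D1:**
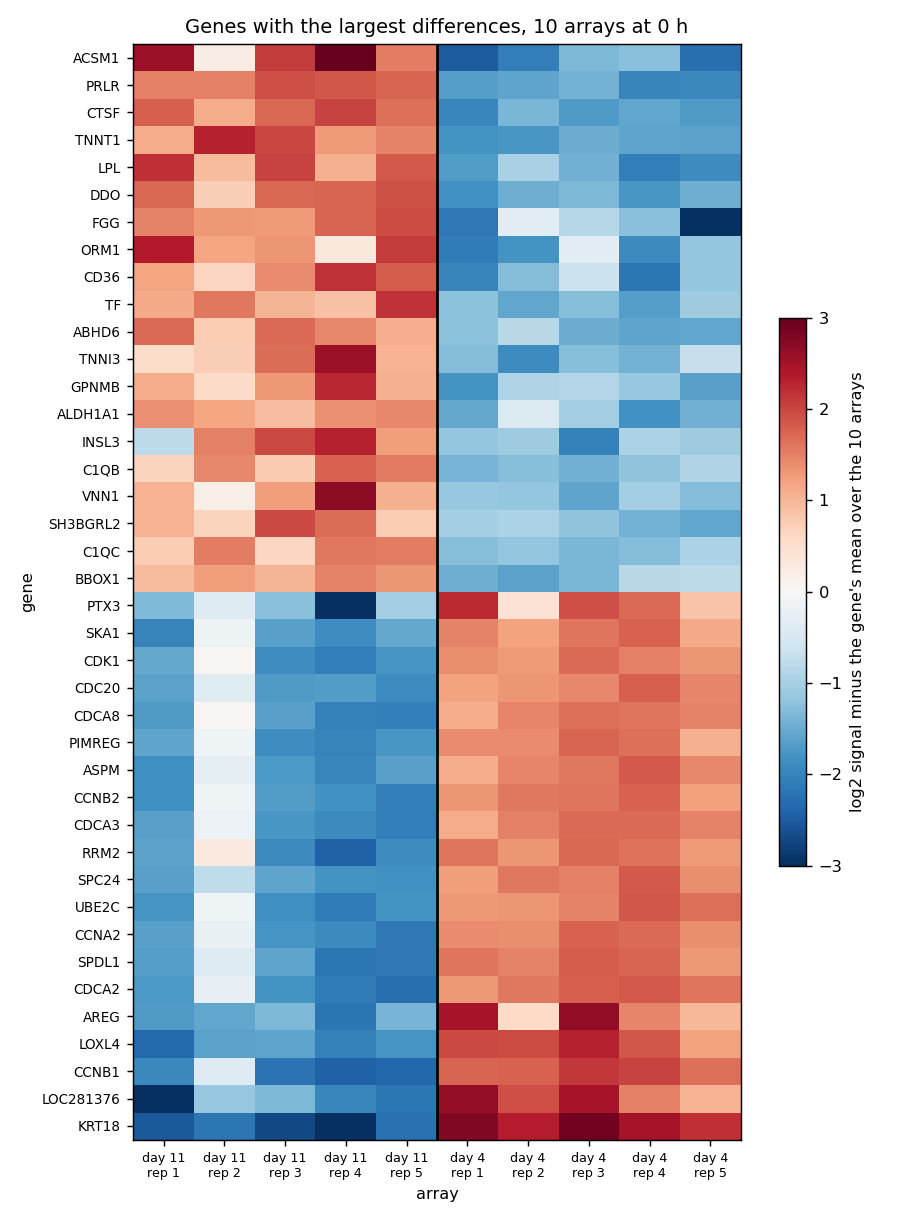
Log2 signal of the 20 genes with the largest higher and the 20 with the largest lower difference on day 11, as the deviation from each gene's mean over the 10 arrays (colour scale in log2 units, red above and blue below), with day 11 arrays left of the black line and day 4 arrays right of it. INSL3 in day 11 replicate 1 is paler than in the other day 11 arrays, and most mitosis genes in day 11 replicate 2 lie near their mean over the 10 arrays.

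Cell division genes were lower on day 11 almost throughout. In 5 lists that cover the cycle, with 160 distinct measured genes, 138 were lower and 4 higher, and the median difference was -1.41, against -0.01 over the other 8995 genes. The lists were ordered by what their genes do. Of 42 genes that license and copy DNA, 39 were lower and 1 higher, with a median of -1.23. MCM4 and MCM3, parts of the helicase that opens the DNA, differed by -2.22 and -2.15, ORC1, which marks replication origins, by -2.24 to a day 11 level near background, and ASF1B, which supplies histones to new DNA, by -2.41. POLD2, a small subunit of DNA polymerase delta, was the higher one, at 0.31 ± 0.11 (adjusted p = 0.023), and it was no longer called without day 11 replicate 3 or without day 4 replicate 1 or 3.

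Of 21 genes of nucleotide supply and chromatin copying, 20 were lower, with a median of -1.41. RRM2 (508167), the subunit of ribonucleotide reductase that is made in S phase, had signals of 7.75, 9.65, 7.44, 6.94 and 7.47 in the day 11 glands, against 10.96, 10.67, 11.08, 10.99 and 10.63 in the day 4 glands. Day 11 replicate 2 lay far above the other 4 day 11 glands but still below every day 4 gland. DTYMK, a kinase that makes thymidine diphosphate, differed by -2.19, UHRF1, which keeps DNA methylation through replication, by -2.45, and LMNB1, a nuclear lamin, by -2.54. Of 19 cohesin, condensin and repair genes, 17 were lower. The condensin subunits NCAPG, NCAPH and NCAPG2, which compact chromosomes, differed by -2.67, -2.56 and -2.23, and FANCI, a DNA crosslink repair protein, by -2.10. XRCC6, which binds broken DNA ends, was higher, at 0.39 ± 0.08 (adjusted p = 0.00031), with overlapping values.

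Mitosis genes shifted most among the 5 lists. Of 48 genes of mitosis, kinetochore and spindle, 45 were lower and none was higher, with a median of -2.11. CCNB1 (327679), the cyclin that drives entry into mitosis, had signals of 5.88, 7.43, 5.62, 5.40 and 5.46 in the day 11 glands, against 9.57, 9.58, 9.95, 9.86 and 9.48 in the day 4 glands. The groups did not overlap, and day 11 replicate 2 was again the highest of its group. Its kinase CDK1 differed by -2.88 ± 0.42, CDC20, which starts anaphase, by -2.89 ± 0.36, and CDCA8, a subunit of the chromosomal passenger complex, by -2.93 ± 0.48. SPC24 and SKA1, which hold microtubules at the kinetochore, differed by -3.03 ± 0.28 and -2.88 ± 0.38, SPDL1, which brings the motor dynein to the kinetochore, by -3.18 ± 0.37, and ASPM, a spindle pole protein, by -2.97 ± 0.34. CDCA2, which recruits a phosphatase to chromatin at the end of mitosis, differed by -3.25 ± 0.38.

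Regulators of the cycle were less uniform. Of 31 cyclins, kinases, E2F factors and inhibitors, 18 were lower, 2 higher and 11 not called. CCND2 (615414), the D-type cyclin best known from granulosa cells, had signals of 7.60, 8.17, 7.78, 7.86 and 7.67 in the day 11 glands, against 9.18, 8.27, 8.64, 8.97 and 9.16 in the day 4 glands, without overlap, and a difference of -1.03 ± 0.16 (adjusted p = 1.5e-05). The D-type cyclin CCND1 did not pass the test, with 7.08 ± 0.19 on day 11 and 6.70 ± 0.10 on day 4 (SD, n = 5 each; difference 0.38 ± 0.16, adjusted p = 0.07), but was called without day 11 replicate 4 or with the 10 arrays alone. Among inhibitors CDKN1C was lower by its brightest probe set, at -0.83 ± 0.27 (adjusted p = 0.016), with neither of its other 2 probe sets called, and it lost its call without day 11 replicate 1 or 2 or day 4 replicate 1. CDKN1A had 9.15 ± 0.27 on day 11 and 9.14 ± 0.27 on day 4 (SD, n = 5 each; adjusted p = 0.96), a difference with a 95% confidence interval of -0.28 to 0.30. The higher genes were BTG1, which restrains proliferation, at 0.75 ± 0.14, and GADD45A, a stress-induced growth arrest gene, whose mean was near background on both days.

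Spread between animals was larger on day 11 in these genes. The median SD of the 160 genes was 0.33 on day 11 and 0.17 on day 4, against 0.19 and 0.16 over the other genes. Day 11 replicate 2 was the highest of its group in 122 of the 138 lower genes. The median of the mitosis list was 6.50, 7.49, 6.49, 6.28 and 6.35 in the day 11 glands, against 8.78, 8.82, 8.96, 8.87 and 8.77 in the day 4 glands. So the highest day 11 gland lay about 1 unit above the rest of its group and still more than 1 unit below the lowest day 4 gland. Without that array 46 genes of the mitosis list were lower.

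**Figure D2:**
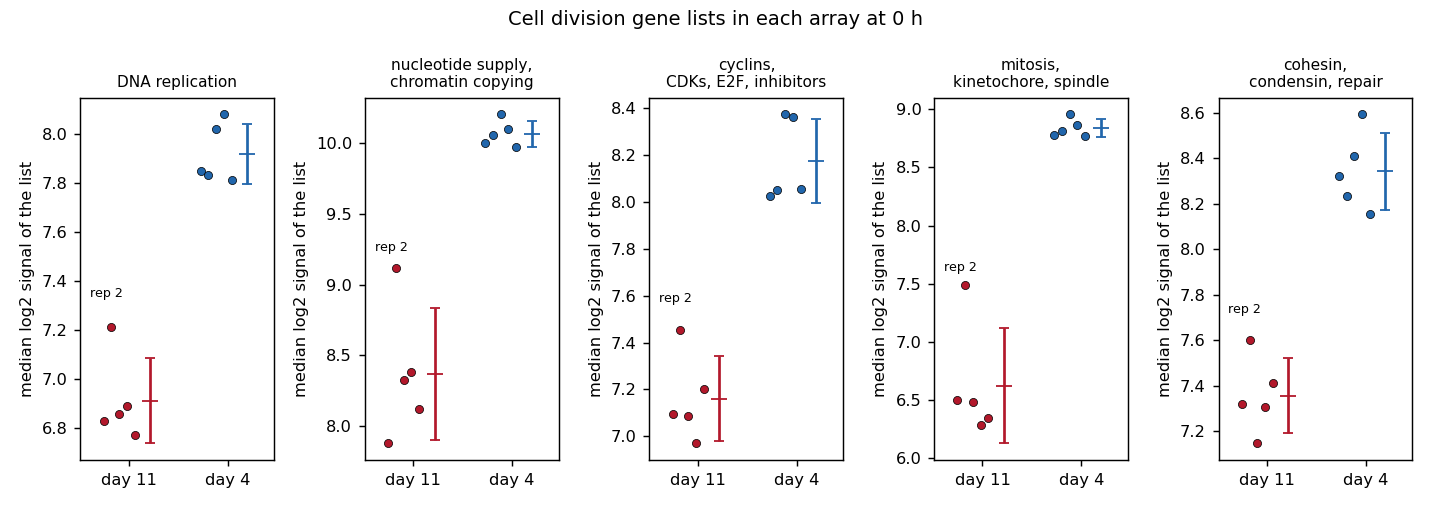
Median log2 signal of each of 5 cell division lists in each array at 0 h, day 11 (red) left and day 4 (blue) right, with the mean and SD of 5 arrays drawn beside the points. The 2 days do not overlap in any list, and day 11 replicate 2 is the highest of its group in all 5.

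Most genes that build ribosomes, import mitochondrial proteins and fold or degrade protein were lower on day 11 by smaller amounts. Of 34 ribosome biogenesis genes 26 were lower and none higher, with a median of -0.51. FBL (538548), which methylates ribosomal RNA, had signals of 9.02, 9.62, 9.56, 9.27 and 9.29 in the day 11 glands, against 10.67, 10.58, 10.83, 10.92 and 10.70 in the day 4 glands. The highest day 11 value lay almost 1 unit below the lowest day 4 value, and the difference was -1.39 ± 0.14 (adjusted p = 1.8e-08). NOP56, which works in the same particle, differed by -1.40 ± 0.17, NHP2, of the particle that makes pseudouridine, by -1.20 ± 0.13, and LYAR, a nucleolar protein, by -1.66 ± 0.18. Of 41 genes of the mitochondrial ribosome and of protein import, 31 were lower and 1 higher, with a median of -0.47. TIMM13 and TIMM10, chaperones that escort proteins between the mitochondrial membranes, differed by -1.18 ± 0.11 and -0.96 ± 0.12, TOMM40, the entry channel, by -0.81 ± 0.12, and MRPS5, a mitochondrial ribosomal protein, by -0.87 ± 0.10. HSPE1, a mitochondrial chaperonin, was the higher one, at 0.31 ± 0.07 (adjusted p = 0.00059).

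Of 37 proteasome and ubiquitin genes, 30 were lower, 2 higher and 5 not called, with a median of -0.38. Core particle subunits moved by similar amounts: PSMB5, a catalytic subunit, differed by -0.64 ± 0.08, PSMB3 by -0.60 ± 0.08 and PSMA4 by -0.60 ± 0.11. UBE2H, a ubiquitin-conjugating enzyme, was called higher by its brightest probe set (0.56) and lower by its other. Only 1 gene of the list was higher without day 11 replicate 2 or 4 or day 4 replicate 1, with the 10 arrays alone or as the mean of all probe sets. Of 35 chaperone and endoplasmic reticulum genes, 22 were lower and 2 higher. CRELD2 and MANF, proteins induced by stress in the endoplasmic reticulum, differed by -1.28 ± 0.17 and -0.95 ± 0.12, and DNAJC3, a cochaperone of the same compartment, by -0.83 ± 0.13. SEL1L, a part of the machinery that removes misfolded proteins from it, was higher by 0.43 ± 0.08. HSPA1A cannot be given a direction, since its brightest probe set was called higher (0.85, adjusted p = 0.04) and 3 others lower. That call was lost with array weights and without any 1 array other than day 11 replicate 4 and day 4 replicate 2, which left 1 of the list higher.

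Cytosolic ribosomal proteins moved little. Of 48 genes 19 were lower, with a median of -0.10, and RPL8 and RPS20 differed by -0.35 ± 0.06 and -0.35 ± 0.09. With the 10 arrays fitted alone only 7 were called lower. Genes of polyamine, serine and one-carbon metabolism, which supply growing cells, included larger differences. SRM (505916), spermidine synthase, had signals of 6.60, 6.91, 6.79, 6.54 and 6.23 in the day 11 glands, against 9.13, 8.81, 8.95, 9.25 and 9.09 in the day 4 glands. The groups lay almost 2 units apart, with a difference of -2.43 ± 0.23 (adjusted p = 9.1e-09). AMD1, which feeds the same pathway, differed by -1.35 ± 0.13, PHGDH, the first enzyme of serine synthesis, by -1.58 ± 0.21, and SHMT2, which moves the one-carbon unit of serine, by -1.60 ± 0.14. In the same list ASS1, of arginine synthesis, was higher by 1.20 ± 0.22 and GLUL, glutamine synthetase, by 0.99 ± 0.12. Of its 31 genes 6 were higher and 11 lower, where 17.9% of all genes were higher and 26.5% lower. The list's median difference was -0.06.

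**Figure D3:**
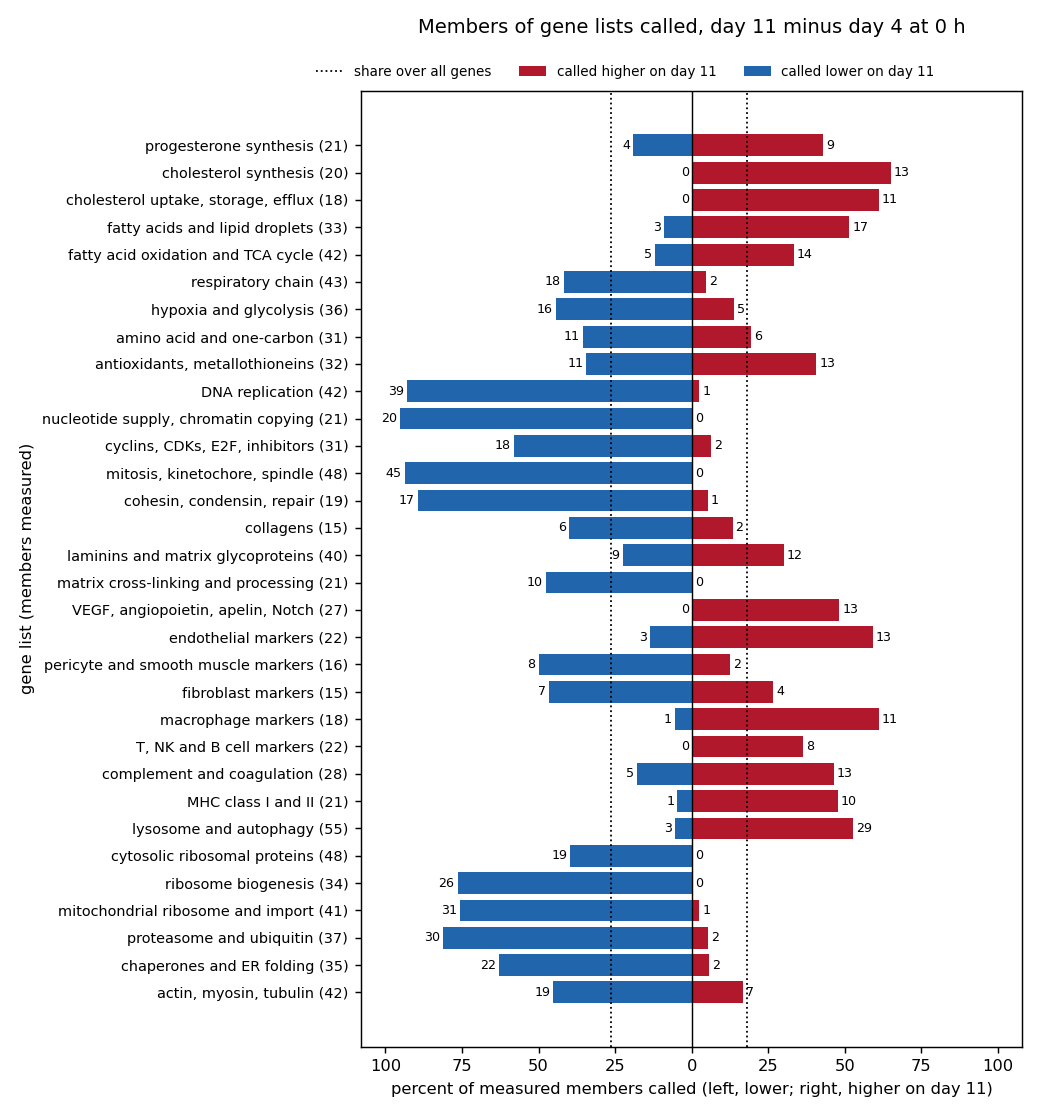
Percent of the measured members of 32 of the 60 gene lists called lower (blue, to the left) and higher (red, to the right) on day 11, with the number of genes called at the end of each bar and the number measured in parentheses. Lists not drawn ranged from 11.1% called (red cell and platelet markers) to 77.8% (luteal tissue genes). Most of these lay below the 44.5% over all genes. Dotted lines mark the shares over all 9155 genes, 26.5% lower and 17.9% higher.

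Among genes of progesterone synthesis STAR and NR5A1 were higher and TSPO lower. Of 21 genes of progesterone synthesis and its regulation, 9 were higher and 4 lower, with a median of 0.15. STAR (281507), which brings cholesterol into mitochondria, had signals of 13.74, 13.48, 13.54, 13.60 and 13.66 in the day 11 glands, against 12.998, 13.004, 12.81, 12.75 and 12.80 in the day 4 glands, without overlap. CYP11A1 (338048), which cuts the side chain of cholesterol, gave 13.53, 13.41, 13.45, 13.41 and 13.55 in the day 11 glands, against 13.20, 13.13, 13.28, 13.27 and 13.27 in the day 4 glands, also without overlap, though the difference was only 0.24 ± 0.07 (adjusted p = 0.0078). FDX1, the electron carrier of that enzyme, differed by 0.35 ± 0.09 (adjusted p = 0.0044). HSD3B1 (281824), which makes progesterone, gave 13.81, 13.67, 13.66, 13.66 and 13.75 in the day 11 glands, against 13.56, 13.45, 13.56, 13.59 and 13.65 in the day 4 glands. Its values did not overlap either, yet the difference of 0.15 ± 0.19 did not pass the test over 30 arrays (adjusted p = 0.61).

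The regulator NR5A1 (281948), steroidogenic factor 1, showed a larger shift, with signals of 11.27, 10.45, 10.68, 11.05 and 10.71 in the day 11 glands, against 8.99, 10.004, 9.61, 9.63 and 9.68 in the day 4 glands. All day 11 glands lay above all day 4 glands, and the difference was 1.25 ± 0.18 (adjusted p = 4.2e-06), with 2 of its 3 other probe sets called the same way. Its relative NR5A2, which the luteal cell also uses, did not pass the test, at 8.46 ± 0.35 on day 11 and 8.87 ± 0.41 on day 4 (SD, n = 5 each; difference -0.41 ± 0.28, adjusted p = 0.3). NR0B1, a repressor of steroid synthesis genes, was higher by 0.89 ± 0.19 (adjusted p = 0.00041). CREM, a cAMP-responsive factor with several isoforms, was higher by 2.0 ± 0.27 by its brightest probe set and by 2 others, and lower by 1 of 5 others. The lower genes were TSPO (281033), an outer mitochondrial membrane protein long linked to cholesterol import, CREB1, PRKAR1A and ACBD3, of which ACBD3 lost its call without day 11 replicate 3 or 4 or day 4 replicate 1 or 3. TSPO gave 9.14, 9.70, 9.34, 8.79 and 9.19 in the day 11 glands, against 10.32, 10.10, 10.10, 10.43 and 10.70 in the day 4 glands, without overlap, and a difference of -1.1 ± 0.17 (adjusted p = 7.1e-06). PRKAR1A, a regulatory subunit that holds protein kinase A inactive, differed by -0.46 ± 0.06 and CREB1, a transcription factor that this kinase activates, by -0.60 ± 0.12.

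Many receptors for hormones that support the gland were dim. Of 19 measured receptors, 9 were near background on both days. Among the 19, 4 were higher and 2 lower, where 17.9% of all genes were higher and 26.5% lower. PRLR (281422), the prolactin receptor, had signals of 7.30, 7.31, 7.73, 7.67 and 7.55 in the day 11 glands, against 4.15, 4.23, 4.38, 3.82 and 3.87 in the day 4 glands. All day 11 glands were about 3 units above the day 4 glands, whose mean was near background, and PRLR had the smallest adjusted p of all named genes (difference 3.42 ± 0.17, adjusted p = 1.4e-13). LHCGR (281900), the receptor for luteinizing hormone, gave 7.48, 7.69, 7.62, 8.92 and 7.88 in the day 11 glands, against 5.75, 7.56, 6.76, 6.51 and 6.93 in the day 4 glands. The highest day 4 gland exceeded the lowest day 11 gland, and the difference was 1.22 ± 0.29 (adjusted p = 0.0013). The natriuretic peptide receptor NPR2 was higher by 0.73 ± 0.13, while the receptors IGF1R and ADIPOR2, for insulin-like growth factor 1 and adiponectin, were lower at -0.52 ± 0.13 and -0.88 ± 0.17. The mean of the 2 probe sets of IGF1R was not called. PTGFR, the PGF2α receptor, had 11.47 ± 0.13 on day 11 and 11.45 ± 0.09 on day 4 (SD, n = 5 each), and the 95% confidence interval of its difference was -0.28 to 0.30.

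**Figure D4:**
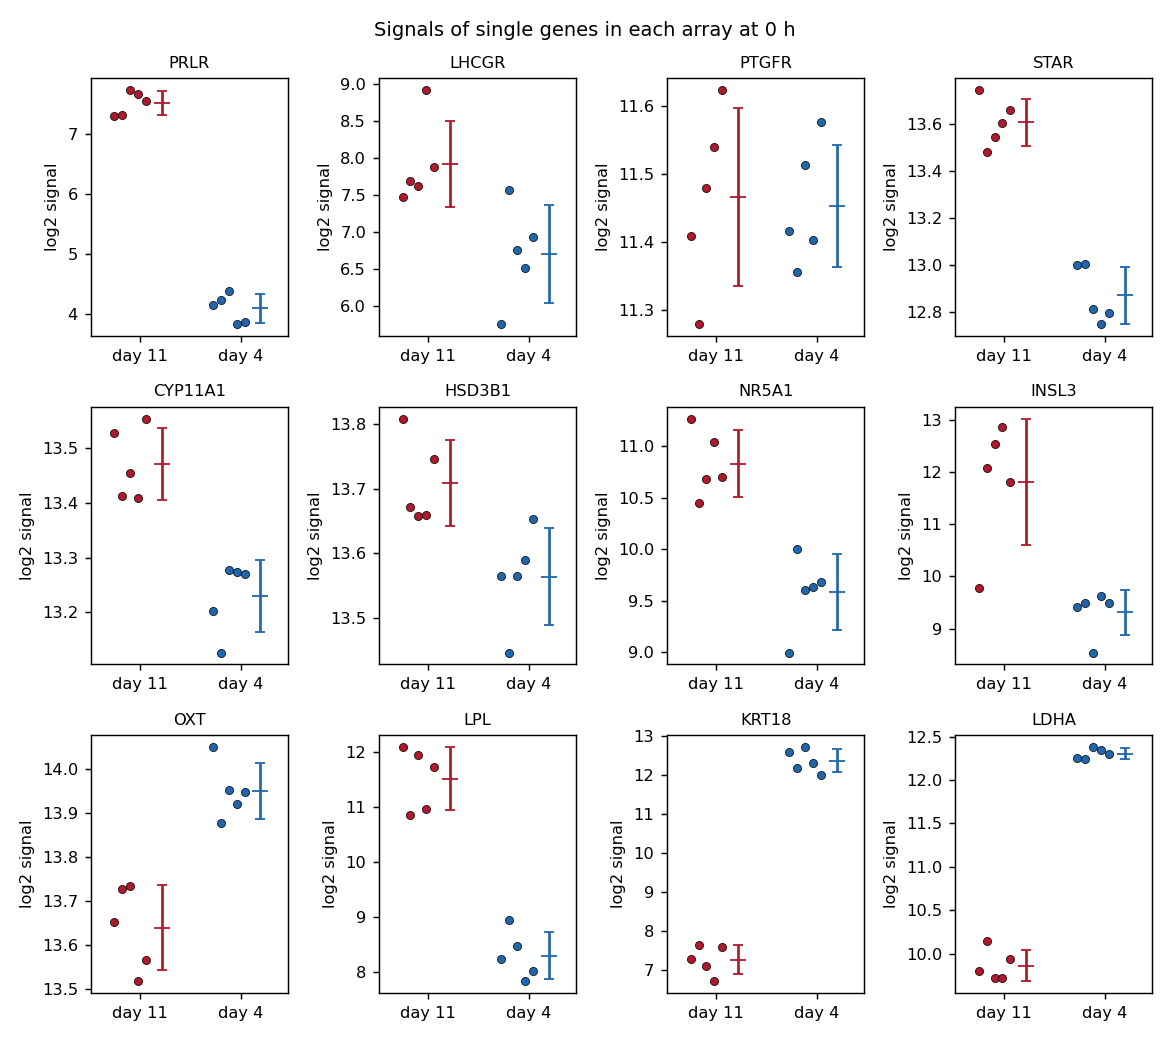
Log2 signal of 12 genes in each array at 0 h, day 11 (red) left and day 4 (blue) right in every panel, with the mean and SD of 5 arrays drawn beside the points; the vertical axes differ in range. PRLR, LPL, KRT18 and LDHA show wide gaps between the days, INSL3 has 1 low day 11 array, and PTGFR overlaps. LDHA is drawn at its brightest probe set, with which its other probe sets differ.

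Of 27 measured peptide hormones 3 were higher and 5 lower, below the shares over all genes (17.9% higher and 26.5% lower). INSL3 (281870), an insulin-like hormone of theca and small luteal cells, had signals of 9.78, 12.07, 12.54, 12.86 and 11.82 in the day 11 glands, against 9.41, 9.50, 8.54, 9.62 and 9.49 in the day 4 glands. Day 11 replicate 1 lay about 2 units under the rest of its group and just above the highest day 4 gland, and the difference was 2.50 ± 0.54 (adjusted p = 0.00052). NTS (280881), neurotensin, gave 10.35, 9.71, 9.55, 9.47 and 10.04 in the day 11 glands, against 8.56, 7.70, 7.85, 6.99 and 7.13 in the day 4 glands, without overlap, and a difference of 2.18 ± 0.33 (adjusted p = 7.8e-06). SCG5, a chaperone of prohormone processing, was higher by 1.91 ± 0.21. OXT, oxytocin, a product of large luteal cells, was lower at -0.31 ± 0.07 and INHA, the inhibin alpha chain of granulosa cells, at -0.96 ± 0.19. GAL, galanin, was lower at -1.07 ± 0.34, with means of 3.97 on day 11 and 5.04 on day 4, the day 11 mean being near background. With the 10 arrays fitted alone 5 were higher.

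Steroid-modifying genes and markers of the parent follicle cells were examined beside these. HSD11B2 and HSD11B1, which inactivate and regenerate cortisol, were both lower, at -1.82 ± 0.22 and -1.21 ± 0.33. CYP19A1, aromatase, was higher by 0.59 ± 0.19 (adjusted p = 0.017), with overlapping values and none of its 3 other probe sets called, and it was not called without day 11 replicate 3 or without day 4 replicate 5. CYP17A1, which makes androgens, did not pass (6.36 ± 0.59 on day 11 and 5.67 ± 0.98 on day 4; SD, n = 5 each; adjusted p = 0.24), but was called without day 4 replicate 2. PGRMC1, a membrane protein that binds progesterone, was higher by 0.65 ± 0.09. Of 8 theca markers 4 were higher (ALDH1A1, INSL3, LHCGR and STAR) and none lower, where 17.9% of all genes were higher and 26.5% lower. STAR and LHCGR were also named above among progesterone synthesis genes and hormone receptors, so these counts are not independent. The median of the theca list per array was 8.70 to 10.02 on day 11 and 7.93 to 8.88 on day 4. Of 13 granulosa markers 4 were higher and 2 lower, to be read against the same shares. Their median difference was 0.09, with 5 of 13 differences negative. The granulosa list's median per array was 7.94 to 8.83 on day 11 and 8.54 to 9.36 on day 4, so the 2 summaries pointed opposite ways. FST, which binds activin, and SERPINE2, a protease inhibitor, were higher by 1.18 ± 0.28 and 1.34 ± 0.12, and the gap junction gene GJA1 was lower at -0.51 ± 0.08, as was INHA. The part of these markers in the steroid results was not tested.

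Most cholesterol genes were higher on day 11. Of 20 genes of cholesterol synthesis 13 were higher and none lower, with a median of 0.60. The list's median per array was 11.11, 10.71, 11.22, 10.93 and 11.01 in the day 11 glands, against 9.90, 10.09, 9.97, 10.01 and 9.92 in the day 4 glands, so that the groups were apart by more than the spread within either. TM7SF2 (282384), a sterol reductase of the pathway, had signals of 12.26, 11.85, 12.004, 11.52 and 12.12 in the day 11 glands, against 9.69, 10.16, 10.04, 9.96 and 9.91 in the day 4 glands. The gap between the groups was more than 1 unit, and the difference was 2.0 ± 0.23 (adjusted p = 2e-07). FDFT1, which commits the pathway to sterols, differed by 0.78 ± 0.25, CYP51A1, which removes a methyl group of lanosterol, by 0.82 ± 0.24, and NSDHL, a later step, by 0.80 ± 0.18. Of 18 genes of cholesterol uptake, storage and efflux, 11 were higher and none lower. SCARB1 (282346), the receptor for high-density lipoprotein, gave 13.52, 13.39, 13.46, 13.28 and 13.62 in the day 11 glands, against 12.59, 12.86, 12.85, 12.84 and 12.73 in the day 4 glands, without overlap, and a difference of 0.68 ± 0.08 (adjusted p = 3.5e-07). APOE, a lipoprotein ligand, was higher by 1.58 ± 0.17, NPC2, which moves cholesterol out of lysosomes, by 0.73 ± 0.10, and LIPE, which frees stored cholesterol, by 0.80 ± 0.21.

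Of 33 genes of fatty acid supply, synthesis and lipid droplets 17 were higher and 3 lower, with a median of 0.50. LPL (280843), which frees fatty acids from lipoproteins at the capillary wall, had signals of 12.10, 10.85, 11.95, 10.97 and 11.74 in the day 11 glands, against 8.23, 8.94, 8.47, 7.83 and 8.01 in the day 4 glands. The lowest day 11 gland was almost 2 units above the highest day 4 gland, and the difference was 3.22 ± 0.25 (adjusted p = 3.6e-10). CD36 (281052), a fatty acid and lipoprotein receptor, gave 8.62, 8.09, 8.85, 9.59 and 9.25 in the day 11 glands, against 5.45, 6.13, 6.79, 5.27 and 6.26 in the day 4 glands, also without overlap, and a difference of 2.90 ± 0.34 (adjusted p = 2.4e-07). ACSS2, which makes acetyl-CoA from acetate, was higher by 1.73 ± 0.20 and DGAT2, which makes triglyceride, by 1.22 ± 0.13. The lower genes were G0S2, an inhibitor of triglyceride breakdown, at -2.31 ± 0.29, PLIN2, a coat protein of the droplets, at -0.55 ± 0.11, and ACSL3, an acyl-CoA synthetase, whose 3 probe sets gave no call when averaged. G0S2 and PLIN2 did not overlap between the days.

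Of 36 genes of glycolysis and hypoxia 16 were lower, 5 higher and 15 not called, with a median of -0.27. LDHA (281274), lactate dehydrogenase A, had signals of 9.80, 10.14, 9.72, 9.72 and 9.94 in the day 11 glands, against 12.25, 12.24, 12.38, 12.35 and 12.31 in the day 4 glands by its brightest probe set. Those groups lay about 2 units apart (difference -2.44 ± 0.17, adjusted p = 4.6e-11), but the other 2 probe sets of LDHA differed by -0.09 (not called) and 0.46 (called higher), so no single direction holds for the gene. SLC16A3 and SLC16A1, which carry lactate, were lower at -1.99 ± 0.19 and -1.23 ± 0.18. Neither other probe set of SLC16A3 was called, at -0.18 and -0.06. ALDOC (504584), an aldolase, was higher, with signals of 11.15, 10.60, 11.50, 10.72 and 11.55 in the day 11 glands, against 8.61, 8.62, 8.53, 8.96 and 8.76 in the day 4 glands and a difference of 2.41 ± 0.20 (adjusted p = 8.8e-10). PDK4, which keeps pyruvate out of the citric acid cycle, was higher by 1.41 ± 0.33, and PFKM, a phosphofructokinase, by 1.18 ± 0.16.

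Mitochondrial pathways were counted apart. Of 42 genes of fatty acid oxidation and the citric acid cycle 14 were higher and 5 lower. Together 45.2% of the list were called, near the 44.5% over all genes (17.9% higher and 26.5% lower). Higher were ETFA, which takes electrons from fatty acid oxidation, by 0.75 ± 0.10, ACADS, a short-chain acyl-CoA dehydrogenase, by 0.57 ± 0.09, and PPARD, a nuclear receptor that senses fatty acids, by 0.76 ± 0.12. Lower were SUCLA2 and IDH3A of the citric acid cycle, at -0.88 ± 0.14 and -0.74 ± 0.14, and BDH1, of ketone bodies, at -0.97 ± 0.18. Only 3 were lower with the 10 arrays alone, and likewise without day 11 replicate 3 or 4 or day 4 replicate 4 or 5. Of 43 respiratory chain genes 18 were lower and 2 higher, by small amounts. In all 46.5% of the list were called, near the same 44.5%. NDUFA5, of complex I, was lower at -0.73 ± 0.10 and UQCRQ, of complex III, at -0.65 ± 0.11. COX6C, of complex IV, was higher by 0.35 ± 0.07.

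Antioxidant genes also split. Of 32 measured 13 were higher and 11 lower. SOD3, the secreted superoxide dismutase, was higher by 2.05 ± 0.19, SELENOP, which carries selenium, by 1.45 ± 0.16, and SRXN1, which repairs peroxiredoxins, by 1.37 ± 0.19. The metallothioneins MT1A and MT2A, which bind zinc and copper, were lower at -2.07 ± 0.39 and -1.61 ± 0.27, and so were GPX1, a glutathione peroxidase, and TXN, thioredoxin, at -1.0 ± 0.12 and -0.77 ± 0.06.

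KRT18 (506480), a keratin of simple epithelia, had the largest difference of all genes. Its signals were 7.30, 7.65, 7.11, 6.72 and 7.59 in the day 11 glands, against 12.60, 12.19, 12.72, 12.32 and 12.02 in the day 4 glands. The groups lay more than 4 units apart, and the difference of -5.10 ± 0.29 (adjusted p = 7.9e-13) is 34.2-fold lower on day 11. Its usual partner KRT8 was dim on both days, at 4.24 ± 0.23 on day 11 and 4.89 ± 0.40 on day 4 (SD, n = 5 each), and lower at -0.65 ± 0.14. Of 13 markers of the ovarian surface epithelium 4 were lower and 1 higher, where 26.5% of all genes were lower and 17.9% higher. Their median difference was -0.04. The median of the list per array was 5.46 to 5.81 on day 11 and 5.14 to 5.69 on day 4. CDH1, the epithelial cadherin, was lower at -1.74 ± 0.24 (adjusted p = 2.3e-06), with its other probe set not called (-0.34). MSLN, mesothelin, was higher by 2.16 ± 0.23 (adjusted p = 4.9e-08). The part of surface epithelium in the KRT18 difference was not tested.

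Growth factors of the epidermal growth factor family were mostly near background, 4 of 7 on both days. AREG (538751), amphiregulin, a ligand that is induced around ovulation, had signals of 3.71, 3.84, 4.05, 3.2 and 4.01 in the day 11 glands, against 7.88, 5.99, 8.07, 6.87 and 6.4 in the day 4 glands. All day 11 glands were near background, while day 4 glands ranged over about 2 units, with a difference of -3.28 ± 0.31 (adjusted p = 9.7e-09). ERRFI1, an inhibitor of the receptor, was higher by 1.18 ± 0.28. TNFAIP6, another gene of the ovulatory follicle, which crosslinks hyaluronan, was lower at -1.89 ± 0.28, with 11.03 ± 0.48 on day 11 and 12.92 ± 0.52 on day 4 (SD, n = 5 each).

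Of 21 genes of matrix crosslinking and collagen processing, 10 were lower on day 11, 11 not called and none higher, with a median of -0.42. LOXL4 (281904), a lysyl oxidase-like enzyme that crosslinks collagen and elastin, had signals of 6.46, 7.17, 7.21, 6.75 and 7.03 in the day 11 glands, against 10.78, 10.74, 11.11, 10.65 and 9.99 in the day 4 glands. The groups lay more than 2 units apart, with a difference of -3.73 ± 0.40 (adjusted p = 5.6e-08). LOX, of the same family, differed by -1.39 ± 0.25, P4HA2, which hydroxylates collagen, by -1.34 ± 0.14, and PCOLCE2, which aids its processing, by -1.12 ± 0.19. Of 15 collagens 6 were lower and 2 higher, where 26.5% of all genes were lower and 17.9% higher. COL5A2, a fibrillar collagen, and COL18A1, of basement membranes, were lower at -0.94 ± 0.17 and -0.78 ± 0.18. COL1A1, the main fibrillar collagen, did not pass (12.80 ± 0.46 on day 11 and 13.31 ± 0.16 on day 4; SD, n = 5 each; adjusted p = 0.068), but was called without day 11 replicate 2. COL4A1, of basement membranes, was higher by 0.20 ± 0.07 (adjusted p = 0.023), and lost its call without day 11 replicate 1 or 3 or day 4 replicate 3. No collagen was called higher with the 10 arrays alone.

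Of 40 matrix glycoproteins 12 were higher and 9 lower, where 17.9% of all genes were higher and 26.5% lower. The list's median difference was 0.05. TNC, tenascin C, a matrix protein of healing wounds, had signals of 6.79, 8.70, 7.44, 5.82 and 5.66 in the day 11 glands, against 9.80, 8.67, 9.99, 9.73 and 10.07 in the day 4 glands. One day 11 gland was far above the others of its day and just above the lowest day 4 gland, and the difference was -2.77 ± 0.51 (adjusted p = 9.2e-05), with its other probe set not called. EFEMP1, a fibulin, was lower at -2.58 ± 0.27 and VCAN, versican, at -1.58 ± 0.21. ELN, elastin, was higher by 1.40 ± 0.36, SPARCL1 by 1.23 ± 0.14 and BGN, biglycan, by 1.09 ± 0.15. The other probe set of ELN, at 0.14, was not called. Among proteases and their inhibitors the urokinase system was lower, with PLAU at -1.30 ± 0.19 and its receptor PLAUR at -1.51 ± 0.16. The inhibitors TIMP3, SERPINE2 and CST3 were higher by 1.49 ± 0.14, 1.34 ± 0.12 and 1.1 ± 0.17. Neither other probe set of CST3 was called, at 0.02 and 0.19.

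Fibroblast and smooth muscle markers were examined beside these groups. Of 15 fibroblast markers 7 were lower and 4 higher, where 26.5% of all genes were lower and 17.9% higher. The list's median per array was 8.96 to 9.32 on day 11 and 9.90 to 10.35 on day 4. The median difference of its members was smaller, at -0.32, with 10 of 15 differences negative. PDGFRA, a platelet-derived growth factor receptor, was lower at -2.01 ± 0.20 by its brightest probe set, with 1 of 2 others called higher at 0.38. DPT, dermatopontin, was lower at -1.62 ± 0.23 and FAP, a surface protease of activated fibroblasts, at -1.49 ± 0.23, while CD34, a marker shared with endothelium, was higher by 0.75 ± 0.16. Only 1 or 2 were higher without day 11 replicate 1, 2, 4 or 5 or day 4 replicate 4. Of 16 smooth muscle and pericyte markers 8 were lower and 2 higher, at 8.02 to 8.49 on day 11 and 8.22 to 8.5 on day 4. Only 5 were lower without day 11 replicate 1. The contractile genes TPM2 and CNN1 were lower at -1.48 ± 0.20 and -1.28 ± 0.28, and RGS5, a marker of pericytes, was higher by 1.14 ± 0.15 (adjusted p = 1.2e-06), with signals of 9.99 to 10.84 on day 11 and 8.79 to 9.47 on day 4. Of 42 actin, myosin and tubulin genes 19 were lower and 7 higher, with TUBB, a tubulin, at -1.31 ± 0.16. Only 4 were higher without day 11 replicate 2, without day 4 replicate 3 or as the mean of all probe sets. The part of these cell types in the matrix results was not tested.

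Vascular genes were counted by family. Of 27 genes of the VEGF, angiopoietin, apelin and Notch families 13 were higher, 14 not called and none lower (1 lower without day 11 replicate 3), with a median of 0.51. The ligand VEGFA did not pass the test, at 11.26 ± 0.14 on day 11 and 10.92 ± 0.23 on day 4 (SD, n = 5 each, difference 0.33 ± 0.18, adjusted p = 0.17), though it was called with the 10 arrays alone. The other probe set of VEGFA, at -0.29, was not called either. Nor did the receptor KDR pass (4.59 ± 0.27 on day 11 and 4.39 ± 0.37 on day 4, SD, n = 5 each, adjusted p = 0.54). FLT1 (503620), the other main VEGF receptor, had signals of 7.47, 7.44, 7.93, 7.84 and 8.28 in the day 11 glands, against 6.52, 6.47, 6.49, 6.69 and 5.93 in the day 4 glands, without overlap, and a difference of 1.37 ± 0.18 (adjusted p = 1e-06), while its other 2 dimmer probe sets were not called. ANGPT1, which stabilises vessels, was higher by 1.13 ± 0.15, TIE1, a receptor of the same family, by 1.09 ± 0.16, and NOTCH4, an endothelial Notch receptor, by 1.18 ± 0.18.

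Of 22 endothelial markers 13 were higher and 3 lower, and the list's median per array was 8.38 to 8.71 on day 11 and 7.87 to 8.27 on day 4, without overlap between the days. ERG, an endothelial transcription factor, was higher by 1.01 ± 0.13, and EGFL7, secreted by endothelium, by 0.93 ± 0.12. The lower ones were PLVAP, SELE and NOS3. PLVAP (524990), which forms the diaphragms of capillary pores, had signals of 4.97, 5.44, 5.93, 6.15 and 5.67 in the day 11 glands, against 8.57, 7.85, 7.95, 7.94 and 7.94 in the day 4 glands. The groups lay apart by more than 1 unit (difference -2.42 ± 0.30, adjusted p = 5.2e-07), though its other probe set, near background, was not called. SELE, an adhesion molecule of inflamed endothelium, was lower at -2.19 ± 0.31, and NOS3, endothelial nitric oxide synthase, at -1.22 ± 0.25. Among other vasoactive genes AGTR1, the angiotensin II receptor, was higher by 1.5 ± 0.26, NOS2, inducible nitric oxide synthase, by 1.08 ± 0.15, and ECE1, which activates endothelin, by 0.81 ± 0.13, while EDN1, the endothelin ligand, did not pass (5.58 ± 0.40 on day 11 and 5.72 ± 0.34 on day 4; adjusted p = 0.77).

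Immune genes were counted by cell type and role. Of 18 macrophage markers 11 were higher and 1 lower, with a median of 1.02, and the list's median per array was 7.64 to 8.24 on day 11 and 6.58 to 6.88 on day 4. C1QB (617435), a chain of complement C1q made by macrophages, had signals of 8.55, 9.33, 8.68, 9.64 and 9.44 in the day 11 glands, against 6.49, 6.61, 6.43, 6.68 and 6.97 in the day 4 glands. All day 11 glands lay above all day 4 glands, with a difference of 2.49 ± 0.38 (adjusted p = 6.6e-06). VSIG4, a complement receptor of resident macrophages, was higher by 1.81 ± 0.35 and MERTK, which helps to engulf dying cells, was lower at -0.60 ± 0.16. GPNMB, a glycoprotein of lysosome-rich cells such as macrophages, gave 9.50 ± 0.62 on day 11 and 6.97 ± 0.43 on day 4 (SD, n = 5 each), a difference of 2.53 ± 0.34 (adjusted p = 1.3e-06). Of 28 complement and coagulation genes 13 were higher and 5 lower. Of the higher genes all but 1 were complement genes, with C1S, a protease of the C1 complex, at 1.98 ± 0.31. The lower ones were genes of coagulation, with F5, coagulation factor V, at -1.89 ± 0.34 and TFPI, an inhibitor of tissue factor, at -1.04 ± 0.20, and without day 11 replicate 1 only 3 were lower.

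Of 21 genes of antigen presentation 10 were higher, 1 lower and 10 not called. BOLA-DRA (506214), the alpha chain of a class II molecule, had signals of 10.72, 11.14, 10.83, 10.78 and 10.65 in the day 11 glands, against 9.54, 8.96, 9.37, 9.63 and 9.89 in the day 4 glands, without overlap, and a difference of 1.35 ± 0.24 (adjusted p = 5.1e-05). TAP1, which pumps peptides to class I molecules, was higher by 1.20 ± 0.20, and BOLA-DMB, which loads class II molecules, by 1.23 ± 0.26. IFI30, a thiol reductase of antigen processing, was the lower one, at -1.35 ± 0.13. T, NK and B cell markers were dim, with a median per array of 4.59 to 4.84 on day 11 and 3.94 to 4.37 on day 4, and 8 of 22 were higher and none lower. That number was 5 without day 11 replicate 2 or 3 or without day 4 replicate 2. GNLY, a killer cell protein, was higher by 1.63 ± 0.35 and PRF1, perforin, by 0.93 ± 0.22. Of 10 granulocyte and mast cell markers 3 were lower, near the 26.5% of all genes, and none higher, with S100A9 at -1.03 ± 0.30. Without day 11 replicate 1 only 1 was lower, and without day 11 replicate 3 or 4 or day 4 replicate 2 there was 1 higher. The part of cell numbers in these lists was not tested.

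Of 39 chemokines and cytokines 5 were higher and 6 lower, fewer than the 17.9% and 26.5% over all genes. CCL21, which attracts lymphocytes and dendritic cells, was higher by 2.18 ± 0.34, with signals of 8.83 to 10.37 on day 11 and 6.82 to 8.08 on day 4. CXCL12, which retains stem and immune cells, was lower at -1.51 ± 0.24, KITLG, the ligand of the receptor KIT, at -1.55 ± 0.31, and the cytokine MIF at -1.46 ± 0.16. Of 24 interferon-stimulated genes only GBP4, GBP5 and STAT2 were called, all higher, by 1.18 ± 0.35, 0.94 ± 0.26 and 0.72 ± 0.15. Without day 11 replicate 5 there were 5, and without day 4 replicate 2 there was 1 lower.

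Of 55 lysosome and autophagy genes 29 were higher, 3 lower and 23 not called, with a median of 0.37, and the list's median per array was 9.85, 9.90, 9.93, 10.14 and 9.96 in the day 11 glands, against 9.29, 9.44, 9.4, 9.27 and 9.51 in the day 4 glands. The 2 days did not overlap. CTSF (509715), a lysosomal cysteine protease, had signals of 11.31, 10.63, 11.24, 11.54 and 11.16 in the day 11 glands, against 7.57, 8.14, 7.83, 7.95 and 7.82 in the day 4 glands. The gap between the groups was more than 2 units, with a difference of 3.32 ± 0.19 (adjusted p = 1.3e-12). MAN2B1, which trims mannose from glycoproteins, was higher by 2.25 ± 0.20, PSAP, which activates the breakdown of sphingolipids, by 1.11 ± 0.08, and ULK1, a kinase that starts autophagy, by 1.28 ± 0.12. Among the lower ones were WIPI1, of the forming autophagosome, at -0.83 ± 0.12 and ASAH1, a ceramidase, at -0.55 ± 0.10. Macrophage markers rose in the same glands, as given above, and their part was not tested.

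Local growth factors and prostaglandins were examined for the signals that luteal cells exchange. Of 17 genes of the insulin-like growth factor system 6 were higher and 2 lower, where 17.9% of all genes were higher and 26.5% lower. IGF2 was higher by 0.83 ± 0.16, with 1 of 3 other probe sets called the same way. IGFBP5, a binding protein, was lower at -1.5 ± 0.30. IGF1 did not pass (7.08 ± 0.29 on day 11 and 6.77 ± 0.17 on day 4; adjusted p = 0.074), but was called without day 11 replicate 4. FGF1 (281160), a fibroblast growth factor, was higher by 1.24 ± 0.16, with 3 of 11 other probe sets called the same way and none the other, and FGF2, a growth factor of endothelium, did not pass (5.02 ± 0.49 on day 11 and 4.18 ± 0.55 on day 4; adjusted p = 0.07), but was called without day 11 replicate 2 or day 4 replicate 1. BAMBI, a decoy receptor of the transforming growth factor beta family, was higher by 1.88 ± 0.22 and TGFBR2, a true receptor, by 0.90 ± 0.13. BMPR1B and BMPR2, receptors of bone morphogenetic proteins, were lower at -0.91 ± 0.27 and -0.80 ± 0.16. These are values of the brightest probe sets. The other probe set of TGFBR2, at -0.28, was not called, and neither were the others of BMPR1B and BMPR2. Of the WNT genes WNT11 was higher by 1.51 ± 0.19 and the decoy SFRP2 lower at -2.0 ± 0.49.

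Of 21 prostaglandin genes 5 were higher and 3 lower (over all genes 17.9% and 26.5%). PTGES (282019), which makes prostaglandin E2, had signals of 5.37, 5.60, 4.92, 5.91 and 5.79 in the day 11 glands, against 8.0, 8.30, 8.35, 7.25 and 6.31 in the day 4 glands, without overlap, and a difference of -2.12 ± 0.36 (adjusted p = 2.8e-05). SLCO2A1, which carries prostaglandins into cells, was higher by 1.28 ± 0.16 and PTGS1, the constitutive cyclooxygenase, by 0.70 ± 0.14. PTGS2, the inducible one, lay at the edge of background on both days and did not pass (4.14 ± 0.27 on day 11 and 4.11 ± 0.22 on day 4; adjusted p = 0.96), and neither did HPGD, which inactivates prostaglandins (5.37 ± 0.35 on day 11 and 5.84 ± 0.25 on day 4; adjusted p = 0.15). In the pathway that the PGF2α receptor signals through, PRKCB, a protein kinase C, was higher by 1.81 ± 0.26 (adjusted p = 2.6e-06), with signals of 7.99 to 8.39 on day 11 and 5.91 to 6.78 on day 4, and ITPR1, which releases stored calcium, by 1.29 ± 0.18, with none of its 4 other probe sets called and no call for the mean of all 5. ATP2A2, which pumps calcium back, was called lower by its brightest probe set (-0.89) and higher by 2 others.

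Animals of one day differed most in a small set of genes. NR4A1 (528390), an early response factor that stress and hormones induce, had signals of 10.24, 6.99, 8.31, 10.67 and 7.06 in the day 11 glands, against 7.16, 6.78, 6.56, 6.88 and 7.52 in the day 4 glands. Day 11 replicates 1 and 4 were above 10 while the others ranged from 6.99 to 8.31, overlapping day 4, and the difference was 1.68 ± 0.49 (adjusted p = 0.0082), a call lost with the 10 arrays alone. NR4A2, of the same family, gave 8.61, 5.69, 6.23, 9.28 and 5.36 in the day 11 glands, against 5.36, 5.15, 5.59, 4.65 and 4.76 in the day 4 glands, with the same 2 glands highest. BOLA (790811), a class I heavy chain, gave 12.57, 14.10, 12.89, 12.40 and 12.65 in the day 11 glands, against 6.16, 10.86, 12.02, 11.84 and 12.31 in the day 4 glands, where day 4 replicate 1 lay far below every other gland, and it was not called with the 10 arrays alone. BOLA-N gave 12.85, 10.30, 9.15, 4.53 and 10.94 on day 11 and 3.88, 9.69, 9.53, 10.97 and 9.30 on day 4, with 1 very low gland in each group, and PRSS2, a trypsinogen, gave 8.71, 8.93, 9.08, 4.21 and 9.72 on day 11 and 7.99, 8.26, 4.14, 7.78 and 8.48 on day 4, again with 1 low gland in each. On day 4 the interferon-stimulated genes ISG15 and MX1 spread widely, with ISG15 at 7.77 to 10.12 on day 11 and 7.46 to 11.03 on day 4 and MX1 at 9.44 to 10.50 on day 11 and 7.44 to 10.94 on day 4.

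The same day difference was measured in other animals 4 h after PGF2α, in another 5 and 5 arrays, all under treatment. Of the 4071 genes called at 0 h, 3849 (94.5%) had the same sign at 4 h. Of them 2859 (70.2% of the 4071) were called the same way, and 20 of the 4071 the opposite way. Of the 5084 genes not called at 0 h, 3481 (68.5%) also had the same sign at 4 h. In the direction of their 0 h difference 855 of these 5084 (16.8%) were called at 4 h, and 183 in the opposite one. Over all genes 42.8% were called at 4 h in either direction. The day difference itself differed between 0 and 4 h in 264 probe sets (1.10%), and between 0 and 24 h in 5342 (22.2%). PRLR differed by 3.68 at 4 h, CCNB1 by -4.05, CTSF by 3.01 and INSL3 by 1.96. Among genes called at 0 h the largest change of the day difference was that of KRT18, which differed by -0.66 at 4 h, with means of 11.94 on day 11 and 12.60 on day 4, a change of 4.44 ± 0.40 from 0 h (adjusted p = 1.2e-07). GAL, at means of 9.92 on day 11 and 6.89 on day 4 after 4 h, changed by 4.11 ± 0.49 (adjusted p = 1.2e-05), G0S2 by 3.06 ± 0.41 and SERPINA14, a uterine serpin, by 3.17 ± 0.64. The adhesion molecule SELE changed by 2.46 ± 0.43, TNFRSF6B, a decoy receptor of the Fas ligand, by 2.54 ± 0.31 and CYP21A2, steroid 21-hydroxylase, by 2.13 ± 0.52. SLCO2B1, an organic anion carrier, changed the other way, by -2.21 ± 0.39. At 4 h 45 of 48 mitosis genes were lower on day 11, as many as at 0 h. Of 24 interferon-stimulated genes 21 were higher at 4 h, with a median difference of 1.27, against 3 and 0.19 at 0 h. The change of either list between the times was not tested.

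**Figure D5:**
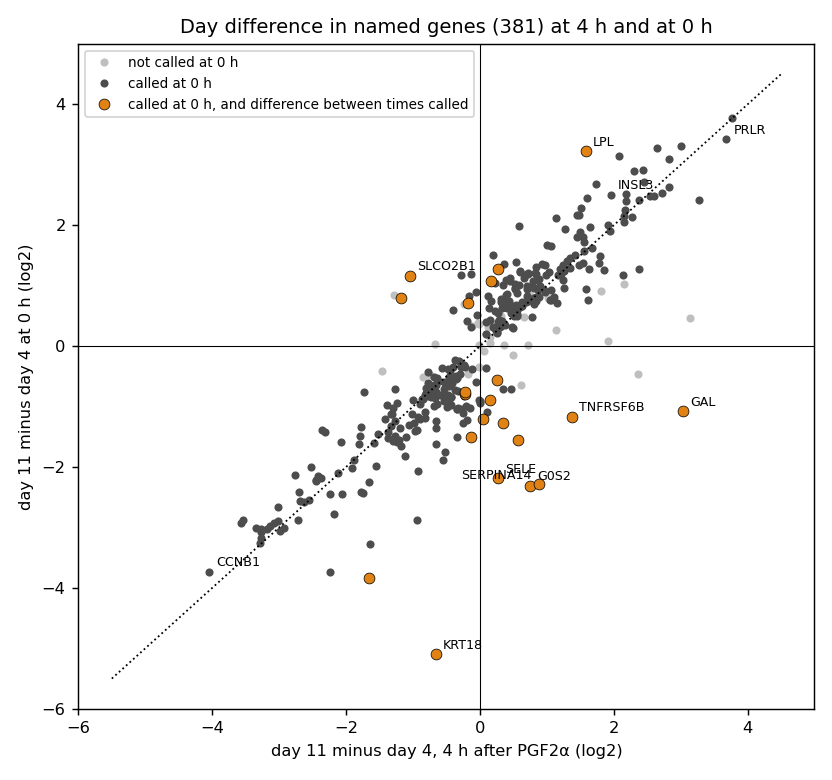
Day 11 minus day 4 at 4 h after PGF2α (horizontal axis, log2) against the same difference at 0 h (vertical axis, log2) for the 381 genes that the naming rule chose, with the line of equal values dotted. Most genes lie near the line, and orange points, among them KRT18, GAL, G0S2 and SLCO2B1, mark genes called at 0 h whose day difference differed between the times.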

How the data were processed

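RNA of 30 corpora lutea had been measured on Affymetrix GeneChip Bovine Genome arrays, 1 per heifer. The log2 signals used here are the deposited values, made by the authors with RMA (robust multi-array averaging) per the submitters' processing notes, with the version not given in the sources used here. The values carry no read depth, and 5 arrays a group limit the precision. Groups follow the labels. A group-means model was fitted with limma 3.58.1 in R 4.3.3 to all 30 arrays over 24016 probe sets (112 control probe sets left out), with Benjamini-Hochberg adjustment, and checked on simulated data. The labels do not say that replicate numbers link animals, and arrays of equal number did not deviate together (correlations of -0.12 to 0.08). Gene names come from the platform annotation, and a gene stands at its probe set with the highest mean. Of 2913 genes with more than 1 probe set, 519 had all called one way and 1008 only some. In 55 probe sets were called in both directions, and in 1331 none was called. Where 1 value is given for a gene, its other probe sets can therefore differ.

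The members and the 60 gene lists were chosen with earlier results of these data known. Named genes are the 20 largest each way among called genes without overlap, up to 4 called each way per list (or, if no member was called, its 2 members of lowest p), a panel of 46 genes (41 measured), 8 per group with the largest SD among bright genes, and the 10 with the largest called change of the day difference at 4 h. Quality measures were compared by exact permutation with scipy 1.17.1. Alternatives covered normalization, filter, weights, block, threshold, array set and single arrays left out. The 24 h arrays enter through the shared fit and 1 count.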

Additional observations from a re-analysis of the deposited data

Results flagged for a closer look

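Values far from the other 4 of their group were found with Dixon's test (a gap over range above 0.71) in 54 of 654 groups of 5 values, where chance flags about 1 in 20 groups. Day 11 replicate 2 was the high sample in 17 cell division genes: ASPM at 7.49, CCNB1 at 7.43, CDC20 at 7.79, CDCA2 at 6.39, CDCA8 at 7.28, CDK1 at 9.02, DTYMK at 7.93, FANCI at 6.73, LMNB1 at 6.07, MCM3 at 8.10, MCM4 at 8.51, NCAPG at 7.42, NCAPG2 at 7.21, NCAPH at 6.92, SKA1 at 6.97, SPC24 at 7.98 and UHRF1 at 7.14. In these genes the other 4 day 11 glands lay closer together, for ASPM between 5.83 and 6.14. The same gland was high in the median of the replication list, at 7.21 against 6.77 to 6.89 in the others, and of the mitosis list, at 7.49 against 6.28 to 6.50.

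Day 11 replicate 1 was far below its group in PSMB3 (10.15) and RPS20 (11.99). Day 11 replicate 2 was far above its group in BOLA (14.10) and far below its group in DDO (6.05). Day 11 replicate 4 was far above its group in LHCGR (8.92) and PTGS2 (4.61) and far below its group in CCND1 (6.75) and PRSS2 (4.21). Day 11 replicate 5 was far above its group in UBE2H (9.91) and far below its group in TIE1 (8.02). Day 4 replicate 1 was far above its group in PLVAP (8.57) and far below its group in BOLA (6.16), BOLA-N (3.88), PHGDH (10.26) and TAP1 (7.5). Day 4 replicate 2 was far above its group in CYP17A1 (7.43) and GLUL (9.12) and far below its group in CDKN1A (8.67) and TNC (8.67). Day 4 replicate 3 was far below its group in INSL3 (8.54), PCOLCE2 (9.02), PDGFRA (9.03) and PRSS2 (4.14). Day 4 replicate 4 was far below its group in CCL21 (6.82) and SPARCL1 (9.44). Day 4 replicate 5 was far above its group in PFKM (8.51) and far below its group in ERG (6.88), FLT1 (5.93) and TNFAIP6 (11.99). List medians apart from their group were those of matrix glycoproteins in day 4 replicate 2, lowest at 9.29, T, NK and B cell markers in day 4 replicate 2, lowest at 3.94, surface epithelium markers in day 11 replicate 1, highest at 5.81, cytokines in day 11 replicate 5, highest at 5.56, early response genes in day 4 replicate 5, lowest at 8.70 and cell death regulators in day 4 replicate 3, highest at 7.71.

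The day 11 minus day 4 difference differed between 4 h and 0 h by the interaction term of the limma fit in 19 genes named in the text. The change was positive in KRT18 (4.44), GAL (4.11), SERPINA14 (3.17), G0S2 (3.06), TNFRSF6B (2.54), SELE (2.46), CYP21A2 (2.13), CNN1 (1.62), PLAUR (1.37), TNFRSF12A (1.25), ATP2A2 (1.03), PLIN2 (0.81) and TXN (0.54), and negative in SLCO2B1 (-2.21), FGF2 (-2.13), LPL (-1.64), ITGA7 (-1.0), NOS2 (-0.91) and JAM2 (-0.90). FGF2 was called at 4 h and not at 0 h, with differences of -1.29 at 4 h and 0.84 at 0 h.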

How the results depend on the processing

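Counts of called probe sets for day 11 minus day 4 stayed within 1.5 times of those given under several alternatives. These were another scaling, filter, variance model, array weights, a threshold of 0.01 and single arrays left out. Against 8128, the count was 7329 to 7992 with single arrays left out and 5818 at a threshold of 0.01. It was 8543 with array weights and 7574 with the 10 arrays alone. With a 2-fold minimum 1360 were called, 684 higher and 676 lower, and 279 of 807 list members. The count for 4 h against 0 h was 94 at a threshold of 0.01 and 129 with a 2-fold minimum, against 264, and that for 24 h against 0 h 3422 and 1794, against 5342. With the replicate number as a block 8455 probe sets were called. The numbers did not pair the animals, and no array correlated best with the array of its own number. Of 5193 values of the 260 named genes over 20 settings, 5030 kept direction and side of the threshold, 125 lost their call (81 of them with the 2-fold minimum) and 12 gained one.

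The direction turned in 10 genes, of which only HSPA1A and UBE2H were called. As the mean of all probe sets HSPA1A gave -0.38, UBE2H -0.10 and PTGFR -0.25, probe sets of the first 2 being called in both directions. With quantile normalization HBA gave -0.033 and PTGS2 -0.019, and with array weights PTGS2 gave -0.013 and CDKN1A -0.054. With single arrays left out the differences spanned -0.32 to 2.14 in BOLA-N, -0.10 to 0.074 in CDKN1A, -0.24 to 0.011 in EDN1, -0.19 to 0.018 in FOXL2, -0.036 to 0.080 in HBA, -0.53 to 0.35 in MX1, -0.026 to 0.060 in PTGFR and -0.083 to 0.10 in PTGS2. The cause was not tested. Median differences of 6 lists changed sign with the scaling: the transforming growth factor beta, acute phase, cytokine receptor, adhesion, protease and prostaglandin lists. Dim probe sets were called least, and genes near background on both days carry little information.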

Other observations

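Cell surface adhesion genes, which hold luteal cells to each other and to the matrix, were called about as often as all genes: of 44 measured, 8 were higher and 10 lower on day 11, where 17.9% of all genes were higher and 26.5% lower. ITGA7, an integrin of muscle and vessel walls that binds laminin, was higher by 1.28 ± 0.14, and CLDN5 and JAM2, of endothelial junctions, by 0.83 ± 0.20 and 0.72 ± 0.16. ITGAV, an integrin that binds fibronectin and vitronectin, was lower at -1.1 ± 0.18, ITGA4, an integrin of leukocytes, at -0.82 ± 0.18, and CADM1, an adhesion molecule of epithelia, at -0.80 ± 0.16. Of 40 solute carriers 10 were higher and 8 lower, together close to the 44.5% of all genes called, with 5 lower without day 11 replicate 1 or without day 4 replicate 1. SLC39A14, which imports zinc and iron, was higher by 1.07 ± 0.18, and SLC1A5, which imports glutamine, was lower at -1.56 ± 0.22.

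Of 27 regulators of cell death 4 were higher and 6 lower, below the shares over all genes (17.9% and 26.5%). BCL2A1, which protects cells, was higher by 1.1 ± 0.32 and PDCD4, which represses translation, by 0.99 ± 0.14. BAK1, which opens the mitochondrial outer membrane, was lower at -0.58 ± 0.13. The adaptors TRADD and FADD of death receptors were lower at -0.54 ± 0.09 and -0.49 ± 0.10. Neither other probe set of FADD was called, nor was the mean of its probe sets. Of 33 cytokine receptors and NF-kB genes 8 were higher and 7 lower, close to the 44.5% called over all genes. TNFRSF21, a death domain receptor, was higher by 1.26 ± 0.18, and TNFRSF12A, the receptor of TWEAK, was lower at -1.21 ± 0.14. Probe sets with no single gene symbol were called less often than named ones, in 2924 of 10724 (27.3%) against 5204 of 13292 (39.2%), and the difference between these shares was not tested.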
